A study of Mus musculus with 24 samples.

Results

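The genes described here are 38 genes of fatty acid oxidation and of the peroxisome proliferator-activated receptors (PPARs), out of 26253 genes in a count table of mouse lung RNA. They were chosen by gene symbol, from their known functions and with earlier results of these data known. All 38 symbols were in the table. By role they comprise 4 PPAR factors and coactivators, 6 genes of the carnitine shuttle and of carrier steps, 10 mitochondrial beta-oxidation enzymes, 3 peroxisomal enzymes, 3 genes of the electron transfer flavoprotein system, 2 acyl-CoA thioesterases, 5 uptake and lipid droplet proteins, and 5 other PPAR targets. Of these, 37 passed the filter on low counts, and Cpt1b did not. RNA came from whole lung of mice on a control diet or on one enriched in DHA (docosahexaenoic acid), an omega-3 fatty acid of fish oil. Exposure was to filtered air or to ozone, a reactive gas that damages airway cells. The 4 groups, control-diet air, control-diet ozone, DHA-diet air and DHA-diet ozone, had 6 libraries each, 24 in all. The sources used here do not give strain, sex, age, ozone dose or the length of the diet. Whether each library is a separate mouse is not stated in the labels, and the p-values therefore cover the spread among libraries, which may be technical.

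Fatty acids that enter a cell are joined to coenzyme A, passed into mitochondria as carnitine esters and shortened by rounds of beta-oxidation, whose electrons reach the respiratory chain through the electron transfer flavoprotein. PPARs are nuclear receptors that bind fatty acids and, paired with a retinoid X receptor, switch on genes of fatty acid uptake, oxidation and storage; DHA is among the fatty acids known to activate them. In the lung, alveolar type 2 cells make surfactant lipid and alveolar macrophages take it up and break it down, so lipid handling there involves several cell types.

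Receptor pairs of this kind bind direct repeats of the half-site AGGTCA with 1 base between the copies. Promoter sequences from RefSeq (mouse build GRCm38.p6) matched 30 of the 38 genes; Vnn1, Ppargc1b, Decr1, Acaa2, Cpt1b, Crat, Lpl and Angptl4 were not matched. On either strand of the 250 bases upstream of the start site, the half-site was present in 8 of the 30 genes (Acadm, Acadvl, Cd36, Cpt1a, Plin2, Plin5, Slc25a34 and Ucp3) and in 4607 of all 32851 promoters of that length. A gene was counted if any of its promoter entries held the half-site, whereas the 4607 are single entries. Genes can have several entries, so these counts are not like for like, and the same holds for the repeats below. The full repeat, AGGTCA, any 1 base and AGGTCA again, was found in 0 of the 30 and in 0.0335% of all promoters, and every copy of it also holds the half-site. A looser repeat with AGGNCA in both places, where N is any base, was found in 0 of the 30 and in 0.338%. The promoters of the 4 genes with the largest fitted decreases after ozone on the control diet follow, because the account of ozone on the control diet begins with these genes. Each runs 5′ to 3′ on the gene's strand from 250 to 31 bases upstream of the RefSeq start, and capitals mark the half-site. Pdk4 lies on the minus strand at chr6:5496309-5496528, Ucp3 on the plus strand at chr7:100472741-100472960, Slc25a34 on the minus strand at chr4:141623865-141624084 and Acot1 on the plus strand at chr12:84009252-84009471.
Pdk4: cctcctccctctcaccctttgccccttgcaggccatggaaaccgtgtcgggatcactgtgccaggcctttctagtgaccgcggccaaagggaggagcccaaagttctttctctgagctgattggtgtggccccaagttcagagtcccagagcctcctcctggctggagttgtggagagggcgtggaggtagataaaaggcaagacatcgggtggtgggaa
Ucp3: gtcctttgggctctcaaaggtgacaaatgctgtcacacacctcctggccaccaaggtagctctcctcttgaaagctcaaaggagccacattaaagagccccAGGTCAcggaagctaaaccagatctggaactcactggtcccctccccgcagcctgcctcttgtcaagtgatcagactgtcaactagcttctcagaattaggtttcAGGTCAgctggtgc
Slc25a34: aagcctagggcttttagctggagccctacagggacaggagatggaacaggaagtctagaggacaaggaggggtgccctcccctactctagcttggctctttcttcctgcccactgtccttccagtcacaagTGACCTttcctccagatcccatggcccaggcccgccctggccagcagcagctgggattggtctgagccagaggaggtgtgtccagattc
Acot1: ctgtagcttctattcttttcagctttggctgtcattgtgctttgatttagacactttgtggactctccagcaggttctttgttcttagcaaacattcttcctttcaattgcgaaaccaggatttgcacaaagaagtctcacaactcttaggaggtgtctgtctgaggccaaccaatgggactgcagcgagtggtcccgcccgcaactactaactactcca
Ucp3 has 2 half-sites, starting 149 and 44 bases upstream. Slc25a34 has 1, on the opposite strand and 119 bases upstream, and Pdk4 and Acot1 have none in this window. The bases just after the Slc25a34 start were not found in its GENCODE M21 transcripts, so distances from that start are uncertain.

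Library totals lay between 18053493 and 26225630 counts, and the test covered 16153 genes. Summed levels of 6 genes that define lung cell types (Sftpc, Scgb1a1, Ager, Foxj1, Cldn5 and Marco) lay between 80000 and 153600 CPM (counts scaled to a common library size) in every library. Libraries 1 to 3 of control-diet air stood apart from libraries 4 to 6 of that group. Their mean over 14 ribosomal protein transcripts was 7.86, 7.84 and 7.79 log2 CPM against 8.15, 8.21 and 8.23. Markers of heart muscle and of white fat, tissues that burn or store fatty acids, were present in every group. Heart muscle sheathes the pulmonary veins in mice, and either tissue can also be taken along with lung. The source of these markers was not tested. The 12 heart markers summed to between 1804 and 2998 CPM in control-diet air, 1268 and 2108 in control-diet ozone, 1377 and 2218 in DHA-diet air, and 1317 and 2068 in DHA-diet ozone libraries. The 8 white fat markers summed to between 137 and 210, 102 and 158, 90.6 and 179, and 99.2 and 135 CPM in the same order, and no gene of either list was at 0 in all libraries. The 8 skeletal muscle markers, of which 5 passed the filter, summed to between 15.7 and 21.4 CPM in control-diet air, 9.65 and 34.1 in control-diet ozone, 7.74 and 18.9 in DHA-diet air and 9.21 and 13.8 in DHA-diet ozone libraries, with none at 0 throughout. The mean of 6 genes that glucocorticoids induce was 6.34 log2 CPM in both control-diet groups, and with the DHA diet 6.76 in air and 6.60 after ozone. In DHA-diet ozone, library 1 was high for several lipid genes and libraries 1 and 2 were high for neutrophil markers, at means of 4.13 and 4.38 log2 CPM over 8 genes where libraries 3 to 6 had 2.53 to 3.02. Differences between groups in the genes described here that rest on these libraries are given with and without them. Results for markers and for other genes of these pathways are given with all libraries only.

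On the control diet, ozone lowered 5 of the 37 genes and raised none of them. Pdk4, Slc25a34, Acot1, Ucp3 and Fabp3 fell, by 1.46-fold for Fabp3 to 2.43-fold for Slc25a34 and Pdk4, while the beta-oxidation enzymes stayed within 0.17 of zero on the log2 scale. A call here means an adjusted p under 0.05 from the quasi-likelihood test of edgeR, adjusted by Benjamini and Hochberg's method over all genes, unless another tool is named. The 5 make up 13.5% of the 37, against 16.8% of all genes called in either direction, 8.93% higher and 7.87% lower. The median log2 change was −0.07 over the 37 genes and −0.01 over all genes. With library totals in place of TMM scaling, all genes called divided into 940 higher and 1737 lower rather than 1442 and 1271, and 7 of the 37 were called lower, with Acadm and Ppargc1a added. Without control-diet air libraries 1 to 3 only Fabp3 of the 5 was still called, Vnn1 was called as well and the median was 0.00. With libraries 4 to 6 of each group alone 3 genes were called, all higher, and the median was 0.06. Of all genes, the first of these fits called 852 higher and 951 lower, and the second 995 higher and 961 lower. In the same comparison 4 of 12 heart markers were called lower, with a median of −0.32, and 1 of 8 white fat markers, with a median of −0.48. The median of the 5 skeletal muscle markers was −0.24, with 0 called by edgeR and 1 at an unadjusted p under 0.05, and the part of these tissues in the result was not tested.

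On the DHA diet, ozone raised 5 of the 37 genes, Acadvl, Hadh, Etfa, Etfb and Lpl, and lowered Ucp3. The increases were small, from 1.09-fold for Hadh to 1.3-fold for Lpl. The 6 calls are 16.2% of the 37, against 23.7% of all genes, of which 12.7% were called higher and 11% lower. The median change was 0.03 over the 37 genes and −0.01 over all genes. Without DHA-diet ozone libraries 1 and 2, Acadvl, Hadh, Etfa, Etfb and Lpl were still called, Ucp3 was not (−0.64, adjusted p = 0.0637), and Acaa1a and Eci1 (higher) and Acot1 and Angptl4 (lower) were called in addition. Markers of other cell types moved in the same comparison: 7 of 8 neutrophil markers were called higher, with a median of 1.37, as were 3 of 8 alveolar type 2 and 3 of 10 alveolar macrophage markers. On the control diet 1 of 8, 6 of 8 and 2 of 10 were called higher, and the part of these cells in the results was not tested. These marker values include DHA-diet ozone libraries 1 and 2, whose neutrophil marker means were 4.13 and 4.38 log2 CPM. Libraries 3 to 6 of that group had 2.53 to 3.02.

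Averaged over both diets, ozone raised 8 and lowered 8 of the 37 genes, which is 43.2% of them against 35.4% of all genes (18.5% higher and 16.9% lower). The genes that rose were Acadvl, Hadh, Acaa1a, Etfa, Etfb, Lpl, Plin2 and Ppard. Those that fell were Pdk4, Ucp3, Slc25a34, Acot1, Acot2, Fabp3, Ppargc1a and Vnn1. The averaged comparison uses the same libraries as the comparisons on each diet and is not separate evidence for them. The median change was −0.01 over the 37 and −0.01 over all genes. Without control-diet air libraries 1 to 3 the averaged calls of Acaa1a, Acot2, Fabp3, Plin2, Ppargc1a and Slc25a34 were lost, and those of Pdk4 (−0.48, edgeR adjusted p = 0.0448), Acot1 (−0.43), Ucp3 (−0.58) and Vnn1 (−0.25) held.

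In air, the DHA diet lowered 1 of the 37 genes, Fabp3, and raised none. That is 2.7% of the 37, against 1.15% of all genes called in either direction, 0.724% higher and 0.427% lower. Fitted values were below zero for 30 of the 37, with a median of −0.10 against 0.00 over all genes, and 11 of the 37 and 2798 of all 16153 genes had an unadjusted p under 0.05. Without control-diet air libraries 1 to 3 the median of the 37 was −0.05 and Fabp3 was not called. The heart, white fat and skeletal muscle markers had medians of −0.47, −0.58 and −0.61 in this comparison, and their part in it was not tested. Averaged over exposures, the DHA diet lowered Ppargc1a and Acadm, 5.41% of the 37 against 7.06% of all genes (3.19% higher and 3.87% lower), and 31 of the 37 values were below zero. The median there was −0.03 over the 37 and 0.01 over all genes. After ozone, edgeR called 0 of the 37 and 0.0% of all genes between the diets, with an unadjusted p under 0.05 for 2 of the 37 and 2260 of all genes. DESeq2 called 0 of the 37 there, and of all genes 38 higher and 37 lower.

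The question whether the diet changed the response to ozone is the test of the interaction, the ozone effect on the DHA diet minus that on the control diet. edgeR called 0 of the 37 genes and 0.0% of all genes, and DESeq2 0 of the 37, with 2 genes of all higher and 3 lower. Of the 37 values 32 were above zero, with a median of 0.09 against 0.00 over all genes, and in edgeR 7 of the 37 and 988 of all genes had an unadjusted p under 0.05. The median was 0.04 without control-diet air libraries 1 to 3, 0.28 with libraries 1 to 3 of each group alone and −0.03 with libraries 4 to 6 alone. Fabp3 had the smallest unadjusted p of the 7, with an interaction of 0.56 ± 0.16 (SE, edgeR adjusted p = 0.645). Slc25a34 had the largest interaction, 1.18 ± 0.40 (edgeR adjusted p = 0.658). A gene called on one diet and not on the other is therefore not shown to respond differently.

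**Figure D1:**
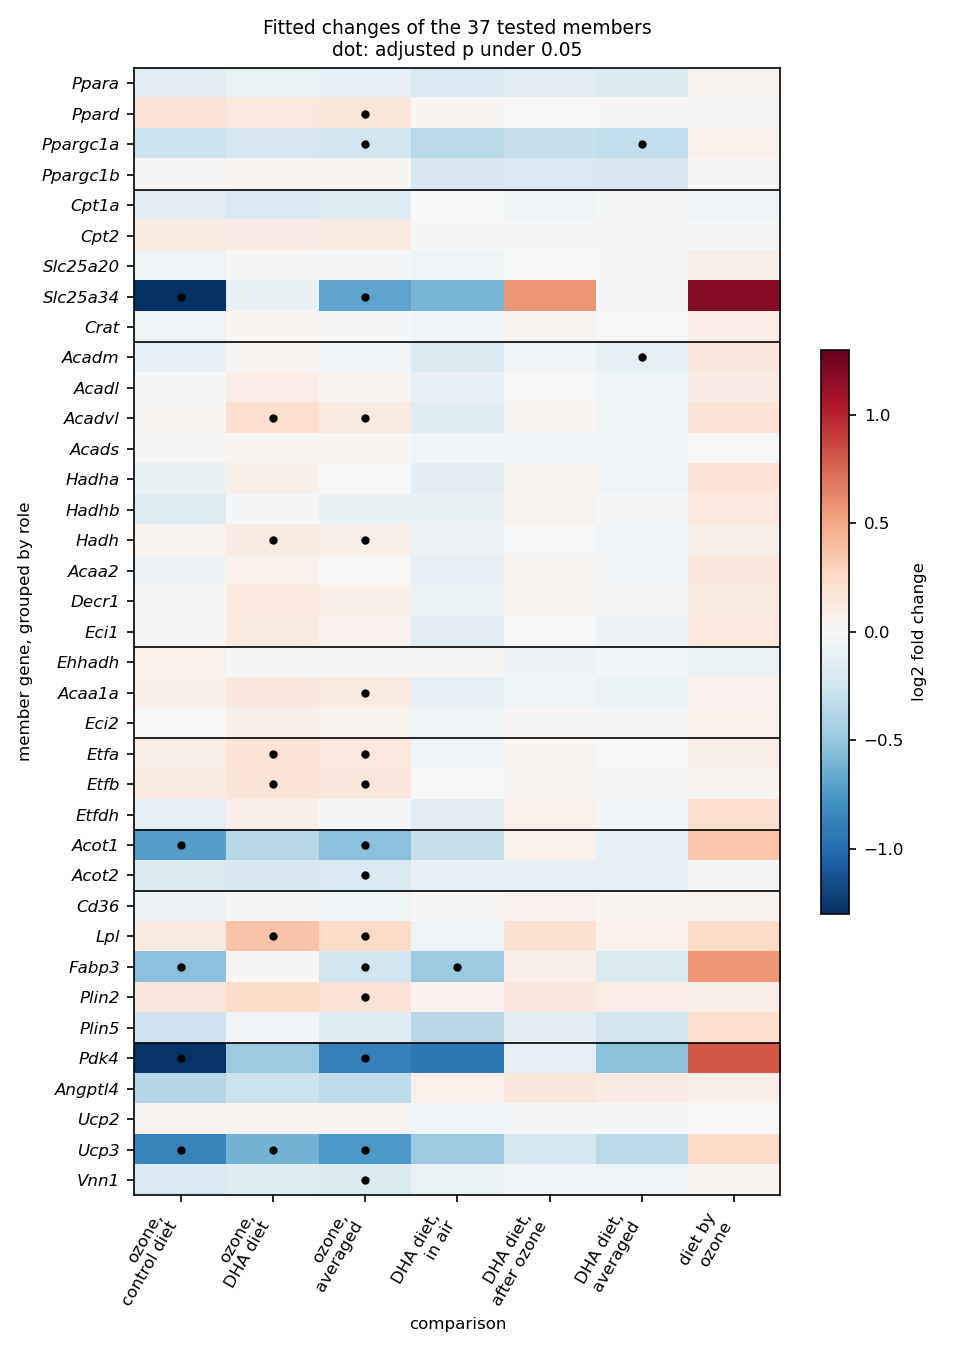
Fitted log2 fold changes of the 37 tested genes (rows, grouped by role, lines between roles) in 7 comparisons (columns); red is higher and blue lower after ozone or on the DHA diet, and dots mark an adjusted p under 0.05. The darkest blue cells, Pdk4 and Slc25a34 at −1.28 after ozone on the control diet, face red interaction cells of 0.81 and 1.18 that were not called.

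Among the PPAR factors, Ppara encodes the receptor of the liver and muscle programme of fatty acid oxidation. Ppara ranged from 7.72 to 12.3 CPM in control-diet air and from 7.92 to 11.4 CPM in control-diet ozone libraries, with medians of 10.7 and 9.15. It ranged from 7.60 to 10.6 CPM in DHA-diet air and from 8.02 to 9.77 CPM in DHA-diet ozone libraries, with medians of 9.11 and 8.41. All 4 ranges overlap, and no comparison called it; its averaged ozone change was −0.11 ± 0.08 (edgeR adjusted p = 0.302). Ppard, the more widely expressed receptor, had medians of 28.5 CPM in control-diet air (24.4 to 29.3), 31.6 in control-diet ozone (27.6 to 32.8), 28.5 in DHA-diet air (25.2 to 31.04) and 30.4 in DHA-diet ozone (28.1 to 34.4). The ozone ranges sit higher but overlap those in air, and the averaged change of 0.15 ± 0.04 was called (edgeR adjusted p = 0.00743). That call was lost with libraries 4 to 6 of each group alone.

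Ppargc1a encodes PGC-1α, a coactivator that drives mitochondrial biogenesis and PPAR targets. Ppargc1a ran from 7.77 to 13.8 CPM with a median of 13.02 in control-diet air and from 8.45 to 10.7 CPM with a median of 10.3 in control-diet ozone libraries. It ran on the DHA diet from 8.39 to 10.6 CPM with a median of 9.47 in air and from 7.47 to 9.42 CPM with a median of 7.74 after ozone. In control-diet air 5 libraries lay at 10.96 CPM or above, and library 6 at 7.77 lay below every control-diet ozone and DHA-diet air library. Ppargc1a fell after ozone averaged over diets by 0.25 ± 0.08 on the log2 scale (edgeR adjusted p = 0.0133) and fell on the DHA diet averaged over exposures by 0.32 ± 0.08 (adjusted p = 0.0183). Both calls were lost without control-diet air libraries 1 to 3, at −0.18 (adjusted p = 0.13) and −0.24 (adjusted p = 0.153). Ppargc1b, a related coactivator, had group means of 4.55 to 5.35 CPM and averaged changes of 0.03 for ozone and −0.21 for diet, neither of them called.

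Pdk4 encodes a kinase that switches off pyruvate dehydrogenase and so spares glucose when fatty acids are burned; the gene spans positions 5483351 to 5496279 of chromosome 6 (mm39, introns included). The 6 control-diet air libraries had 84.0, 69.1, 47.8, 33.8, 27.7 and 19.8 CPM. Control-diet ozone libraries ran from 8.71 to 27.9 CPM with a median of 19.7, with libraries 1 to 3 at 8.71 to 13.7 and libraries 4 to 6 at 25.6 to 27.9. DHA-diet air libraries ran from 20.4 to 33.4 CPM with a median of 23.01, and DHA-diet ozone libraries from 13.2 to 26.6 CPM with a median of 17.2. The spread in control-diet air is wide: its lowest library lies below all of DHA-diet air, and 3 of the 6 control-diet ozone libraries lie within its range. Pdk4 fell after ozone on the control diet by 1.28 ± 0.29 on the log2 scale (edgeR adjusted p = 0.00306). This call was lost without control-diet air libraries 1 to 3, at −0.48 (adjusted p = 0.274). Libraries 1 to 3 are the highest of that group for Pdk4, so leaving them out shrinks the decrease and leaves fewer libraries. In bulk tissue, fewer cells of a type and less RNA per cell cannot be told apart, for this and every other change given here. On the DHA diet the change was −0.47 ± 0.29 (adjusted p = 0.251), and the interaction was 0.81 with a 95% interval of −0.04 to 1.65. In air, the DHA diet gave −0.93 ± 0.28 (adjusted p = 0.0877), and after ozone −0.13 with a 95% interval of −0.74 to 0.49.

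Ucp3 encodes a mitochondrial carrier of muscle that rises when fatty acids are burned. Its gene spans positions 100122198 to 100135640 of chromosome 7. Ucp3 ran from 3.37 to 8.94 CPM in control-diet air and from 1.495 to 4.25 CPM in control-diet ozone libraries, with medians of 5.07 and 2.89. It ran on the DHA diet from 3.09 to 4.81 CPM in air and from 2.04 to 3.09 CPM after ozone, with medians of 3.52 and 2.45. The ranges overlapped on the control diet, where 5 of 6 ozone libraries lay below all air libraries. On the DHA diet they all but met, at 3.093 CPM after ozone against 3.094 CPM in air for the nearest pair. Ucp3 fell by 0.87 ± 0.21 on the control diet (edgeR adjusted p = 0.00512) and by 0.62 ± 0.21 on the DHA diet (adjusted p = 0.0362). The control-diet call was lost without control-diet air libraries 1 to 3, at −0.55 (adjusted p = 0.119). The call on the DHA diet was lost without any 1 of DHA-diet air libraries 3 and 4 or DHA-diet ozone libraries 1, 3, 4 and 6, at an adjusted p of up to 0.086.

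Angptl4, a secreted inhibitor of lipoprotein lipase, is described because of its spread, a choice made after its values were seen. Angptl4 ran from 21.4 to 29.7 CPM in control-diet air with a median of 25.6 and from 8.81 to 25.5 CPM in control-diet ozone with a median of 23.6. In DHA-diet air it ran from 18.2 to 35.3 CPM with a median of 26.5, and in DHA-diet ozone from 10.1 to 54.5 CPM with a median of 17.4. Library 1 of DHA-diet ozone had the 54.5 CPM, above every other library, and the other 5 of its group had 10.1 to 19.6. With all libraries its change after ozone on the DHA diet was −0.28 ± 0.28 (edgeR adjusted p = 0.509). Without DHA-diet ozone libraries 1 and 2, a choice made after seeing the values, it was −0.89 (adjusted p = 0.00495). Vnn1, a pantetheinase that acts in coenzyme A breakdown, fell after ozone averaged over diets by 0.19 ± 0.06 (adjusted p = 0.0199), with group medians of 21.3 and 19.4 CPM on the control diet and 21.01 and 18.7 CPM on the DHA diet in air and after ozone. Its group ranges overlap, at 18.3 to 27.96, 17.6 to 20.1, 17.9 to 21.9 and 15.2 to 20.9 CPM in the same order. Ucp2, a relative of Ucp3 found in many tissues, had group means of 508 to 532 CPM and changes between −0.03 and 0.05 in all 7 comparisons.

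**Figure D2:**
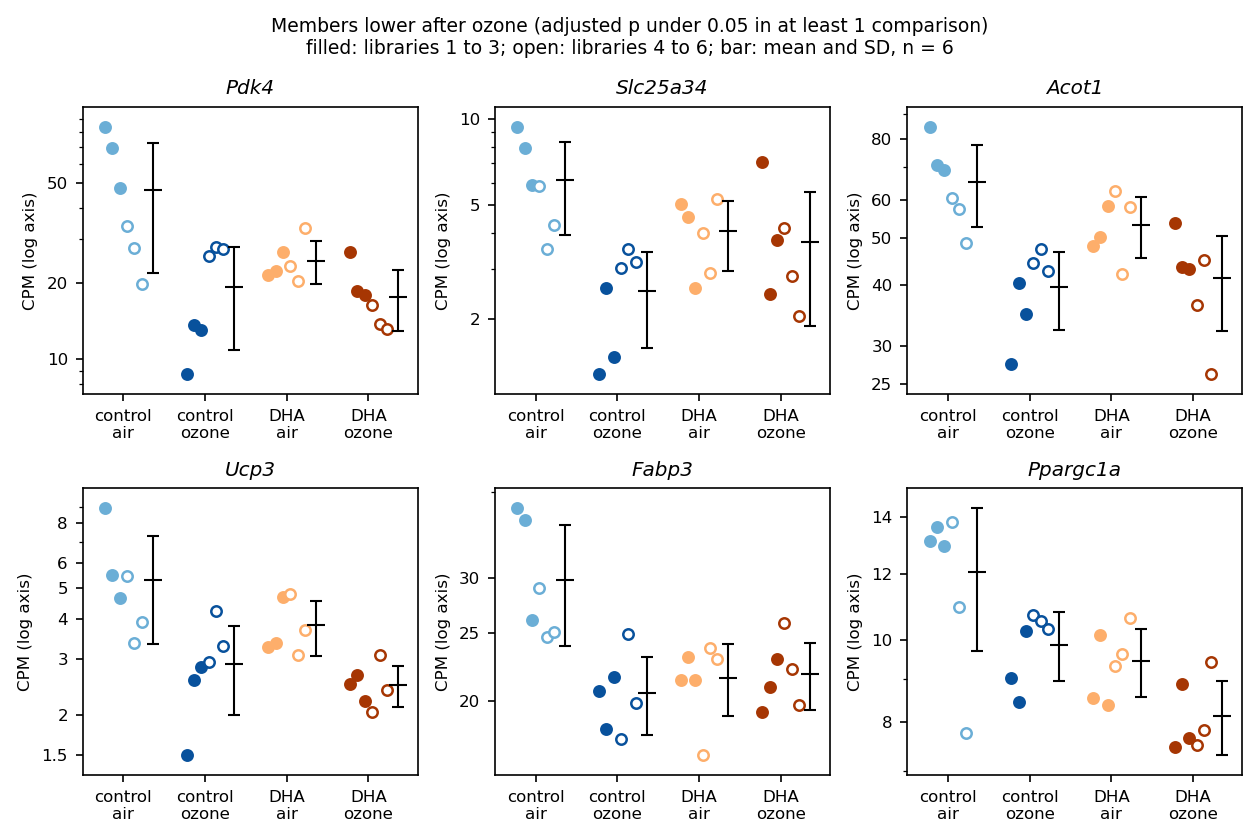
Levels of Pdk4, Slc25a34, Acot1, Ucp3, Fabp3 and Ppargc1a in CPM on log axes, 1 point per library (filled for libraries 1 to 3, open for 4 to 6) with the mean and SD of 6 beside each group. In control-diet air, Pdk4 lies at 47.8 to 84.0 CPM in libraries 1 to 3 and at 19.8 to 33.8 in libraries 4 to 6, and Slc25a34 and Acot1 have no overlap between air and ozone on that diet.

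Of the genes that carry acyl groups and other substrates into mitochondria, Slc25a34, a mitochondrial carrier at positions 141346136 to 141351146 of chromosome 4, changed most. Slc25a34 ran from 3.52 to 9.39 CPM in control-diet air with a median of 5.85 and from 1.29 to 3.51 CPM in control-diet ozone with a median of 2.80. In DHA-diet air it ran from 2.58 to 5.27 CPM with a median of 4.28, and in DHA-diet ozone from 2.05 to 7.09 CPM with a median of 3.30. On the control diet every ozone library lay below every air library, at 3.51 against 3.52 CPM for the nearest pair, and on the DHA diet the ranges overlapped, with library 1 of ozone highest. Slc25a34 fell by 1.28 ± 0.29 after ozone on the control diet (edgeR adjusted p = 0.00304), and its change on the DHA diet was −0.10. Both this call and the averaged one were lost without control-diet air libraries 1 to 3, at −0.85 (adjusted p = 0.103) and −0.47 (adjusted p = 0.1). Those libraries are the highest of their group for Slc25a34, so leaving them out shrinks the decrease. Cpt1a, the rate-limiting carnitine palmitoyltransferase, had group means of 108 to 124 CPM and ozone changes of −0.13 on the control and −0.19 on the DHA diet. Cpt2, Slc25a20 and Crat, which complete the carnitine shuttle, had group means of up to 28.4, 51.5 and 62.95 CPM, and averaged ozone changes of 0.11, −0.03 and −0.02; none of the 3 was called. Cpt1b, the muscle form, had 0 to 15 counts per library, and 93.7% of its 31-base words also lie in the overlapping read-through gene Gm44502, so its level is uncertain.

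Of the 10 mitochondrial beta-oxidation enzymes, 2 rose after ozone averaged over diets, where 18.5% of all genes were called higher, and fitted changes of all 10 were small. Acadvl, the dehydrogenase of very long chains, ran from 118 to 139 CPM in DHA-diet air with a median of 128 and from 142 to 150 CPM in DHA-diet ozone with a median of 146. It ran on the control diet from 132 to 155 CPM in air and from 129 to 155 CPM after ozone, with medians of 140 and 144. The ranges did not overlap on the DHA diet and were nearly the same on the control diet. Acadvl rose by 0.20 ± 0.05 on the DHA diet (edgeR adjusted p = 0.00232) against 0.02 on the control diet, with an interaction of 0.18 ± 0.07 that was not called (adjusted p = 0.664). Hadh, which oxidises hydroxyacyl-CoA of medium and short chains, ran from 137 to 144 CPM in DHA-diet air with a median of 140 and from 133 to 163 CPM in DHA-diet ozone with a median of 155. Hadh ran on the control diet from 137 to 158 CPM in air and from 141 to 161 CPM after ozone, with medians of 148 and 154. For Hadh 5 of 6 DHA-diet ozone libraries lay above all DHA-diet air libraries, and library 1 lay below them. Hadh rose by 0.12 ± 0.04 on the DHA diet (adjusted p = 0.0477) and by 0.08 averaged over diets (adjusted p = 0.0376). These calls lie close to the threshold. On the DHA diet the call held without 1 library only for control-diet air 2, 4 or 6, DHA-diet air 1, control-diet ozone 1 or DHA-diet ozone 1, and reached an adjusted p of 0.132 among the other 18. Averaged over diets it was lost without any 1 of 15 libraries, all but control-diet air 1, 2 and 4, DHA-diet air 1 and 6, control-diet ozone 2 and 5 and DHA-diet ozone 1 and 4, at up to 0.0907.

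Acadm, the medium-chain dehydrogenase, ran from 114 to 136 CPM in control-diet air with a median of 124 and from 105 to 116 CPM in DHA-diet air with a median of 109. After ozone it ran from 108 to 127 CPM on the control diet and from 103 to 119 CPM on the DHA diet, with medians of 115 and 115. The ranges of the diets overlap both in air, at 116 CPM in DHA-diet against 114 CPM in control-diet library 6, and after ozone. Acadm fell on the DHA diet averaged over exposures by 0.12 ± 0.04 (edgeR adjusted p = 0.0425), and in air its change of −0.19 ± 0.05 missed the threshold (adjusted p = 0.0542). The averaged call was lost without any 1 of 14 libraries, all but control-diet air 4, 5 and 6, DHA-diet air 3 and 6, control-diet ozone 2 and 4 and DHA-diet ozone 2, 5 and 6, at an adjusted p of up to 0.0846. In air, all 10 beta-oxidation enzymes had fitted values below zero on the DHA diet, from −0.19 for Acadm to −0.05 for Acads, with 0 called by edgeR and 4 at an unadjusted p under 0.05. DESeq2 called Acadm and Acadvl there. After ozone on the DHA diet 9 of the 10 values were above zero, and all 10 interactions were, from 0.01 to 0.18. Group means of the enzymes not described above were 171 to 185 CPM for Acadl, 31.8 to 33.3 for Acads, 156 to 172 for Hadha, 16.8 to 18.9 for Hadhb, 159 to 171 for Acaa2, 56.7 to 62.2 for Decr1 and 49.4 to 54.6 for Eci1, and none of these 7 was called in any comparison.

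Etfa and Etfb, the subunits of the electron transfer flavoprotein, rose. Etfa ran from 130 to 140 CPM in DHA-diet air with a median of 136 and from 138 to 161 CPM in DHA-diet ozone with a median of 155. Etfa ran on the control diet from 127 to 150 CPM in air and from 134 to 156 CPM after ozone, with medians of 141 and 151. Its DHA-diet ranges met only at library 1 of the ozone group, and the control-diet ranges overlapped widely. Etfa rose by 0.18 ± 0.05 on the DHA diet (edgeR adjusted p = 0.00556) and by 0.13 ± 0.03 averaged over diets (adjusted p = 0.00207). Both calls were lost with libraries 1 to 3 of each group alone. Etfb ran from 119 to 133 CPM in DHA-diet air with a median of 130 and from 136 to 153 CPM in DHA-diet ozone with a median of 141. Etfb ran on the control diet from 110 to 137 CPM in air and from 132 to 146 CPM after ozone, with medians of 130 and 139. Its DHA-diet ranges did not overlap and its control-diet ranges did. Etfb rose by 0.17 ± 0.05 on the DHA diet (adjusted p = 0.00919) and by 0.15 ± 0.03 averaged over diets (adjusted p = 0.000875). The DHA-diet call was lost with libraries 1 to 3 of each group alone and with libraries 4 to 6 alone, and the averaged one held in both. Etfdh, the enzyme that passes the electrons on to ubiquinone, had group means of 42.6 to 46.8 CPM and was not called.

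Acot1 and Acot2 encode neighbouring thioesterases, cytosolic and mitochondrial, that release fatty acids from coenzyme A; Acot1 spans positions 84056276 to 84064444 of chromosome 12. Acot1 ran from 48.9 to 84.8 CPM in control-diet air with a median of 64.8 and from 27.5 to 47.5 CPM in control-diet ozone with a median of 41.5. In DHA-diet air it ran from 42.2 to 62.6 CPM with a median of 54.1, and in DHA-diet ozone from 26.2 to 53.6 CPM with a median of 43.4. The groups were apart on the control diet and overlapped on the DHA diet. Acot1 fell by 0.72 ± 0.14 on the control diet (edgeR adjusted p = 0.00113), a 1.65-fold decrease, and by 0.54 ± 0.10 averaged over diets (adjusted p = 0.000149). The first call was lost without control-diet air libraries 1 to 3, at −0.49 (adjusted p = 0.0525), and the averaged one held. Those libraries are the highest of their group for Acot1, so leaving them out shrinks the decrease. Acot2 had medians of 22.5 CPM (18.8 to 27.5) in control-diet air, 19.9 (15.5 to 22.7) in control-diet ozone, 18.98 (17.8 to 25.6) in DHA-diet air and 17.4 (16.3 to 19.8) in DHA-diet ozone. All of its ranges overlap, and it fell only in the average, by 0.20 ± 0.07 (adjusted p = 0.0351). That call was lost without any 1 of control-diet air 1, DHA-diet air 3 or 4, control-diet ozone 1 or 3 or DHA-diet ozone 4, at an adjusted p of up to 0.0761. The 2 genes share sequence, since 29.2% of the 31-base words of Acot1 also occur in Acot2, so the split of reads between them is uncertain.

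Of the 3 peroxisomal enzymes, Acaa1a, the thiolase that ends each round of peroxisomal beta-oxidation, rose after ozone averaged over diets by 0.12 ± 0.04 (edgeR adjusted p = 0.0272). Acaa1a ran from 185 to 201 CPM in control-diet air and from 189 to 225 CPM in control-diet ozone, with medians of 190 and 199. It ran on the DHA diet from 158 to 188 CPM in air and from 158 to 217 CPM after ozone, with medians of 178 and 200. Ranges overlap on both diets, and the call was lost without DHA-diet air library 5, control-diet ozone library 4 or DHA-diet ozone library 2, at up to 0.0637. Library totals also lost it, as did leaving out control-diet air libraries 1 to 3. Libraries 1 to 3 or 4 to 6 of each group alone lost it too. Ehhadh, the bifunctional enzyme, had group means of 10.5 to 11.03 CPM and Eci2, an enoyl-CoA isomerase, 62.7 to 66.2 CPM, and neither was called.

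Among uptake and droplet proteins, Lpl encodes lipoprotein lipase, which frees fatty acids from circulating triglyceride. Lpl ran from 156 to 223 CPM in DHA-diet air with a median of 201 and from 221 to 321 CPM in DHA-diet ozone with a median of 249. Lpl ran on the control diet from 183 to 239 CPM in air and from 203 to 250 CPM after ozone, with medians of 205 and 223. For Lpl 4 of 6 DHA-diet ozone libraries lay above all DHA-diet air libraries, and library 1 was highest. Lpl rose by 0.37 ± 0.09 on the DHA diet (edgeR adjusted p = 0.0029) and by 0.25 ± 0.06 averaged over diets (adjusted p = 0.00292), and without DHA-diet ozone libraries 1 and 2 the first was 0.26 (adjusted p = 0.026). The DHA-diet call was lost with libraries 4 to 6 of each group alone. Plin2 encodes the coat protein of lipid droplets in most cells, and its medians were 105 CPM (104 to 111) in control-diet air, 117 (105 to 127) in control-diet ozone, 110 (102 to 117) in DHA-diet air and 121 (104 to 188) in DHA-diet ozone. The ozone ranges reach higher and overlap those in air. Plin2 rose averaged over diets by 0.19 ± 0.06 (adjusted p = 0.0199), a value that dropped to 0.12 without DHA-diet ozone library 1 and was still called. The Plin2 call was lost with library totals, without control-diet air libraries 1 to 3, and with libraries 1 to 3 of each group alone.

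Fabp3, the fatty acid binding protein of heart and muscle, lies at positions 130202531 to 130209257 of chromosome 4. Fabp3 ran from 24.7 to 37.9 CPM in control-diet air with a median of 27.6 and from 17.6 to 24.98 CPM in control-diet ozone with a median of 20.2. In DHA-diet air it ran from 16.7 to 23.8 CPM with a median of 22.2, and in DHA-diet ozone from 19.3 to 25.8 CPM with a median of 21.6. Control-diet air stood above the other 3 groups, overlapping control-diet ozone and DHA-diet ozone in part and DHA-diet air not at all. Fabp3 fell after ozone on the control diet by 0.54 ± 0.11 (edgeR adjusted p = 0.00122), fell on the DHA diet in air by 0.47 ± 0.11 (adjusted p = 0.0318), and changed by 0.02 after ozone on the DHA diet. The diet call in air was lost without any 1 of control-diet air libraries 1, 2 and 4 or DHA-diet air libraries 1, 3 and 4, at an adjusted p of up to 0.107, and without control-diet air libraries 1 to 3 the value was −0.29 (adjusted p = 0.246). Cd36, a fatty acid translocase, had group means of 952 to 1014 CPM, and Plin5, the droplet coat of oxidative tissues, 8.08 to 10.7 CPM; neither was called.

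**Figure D3:**
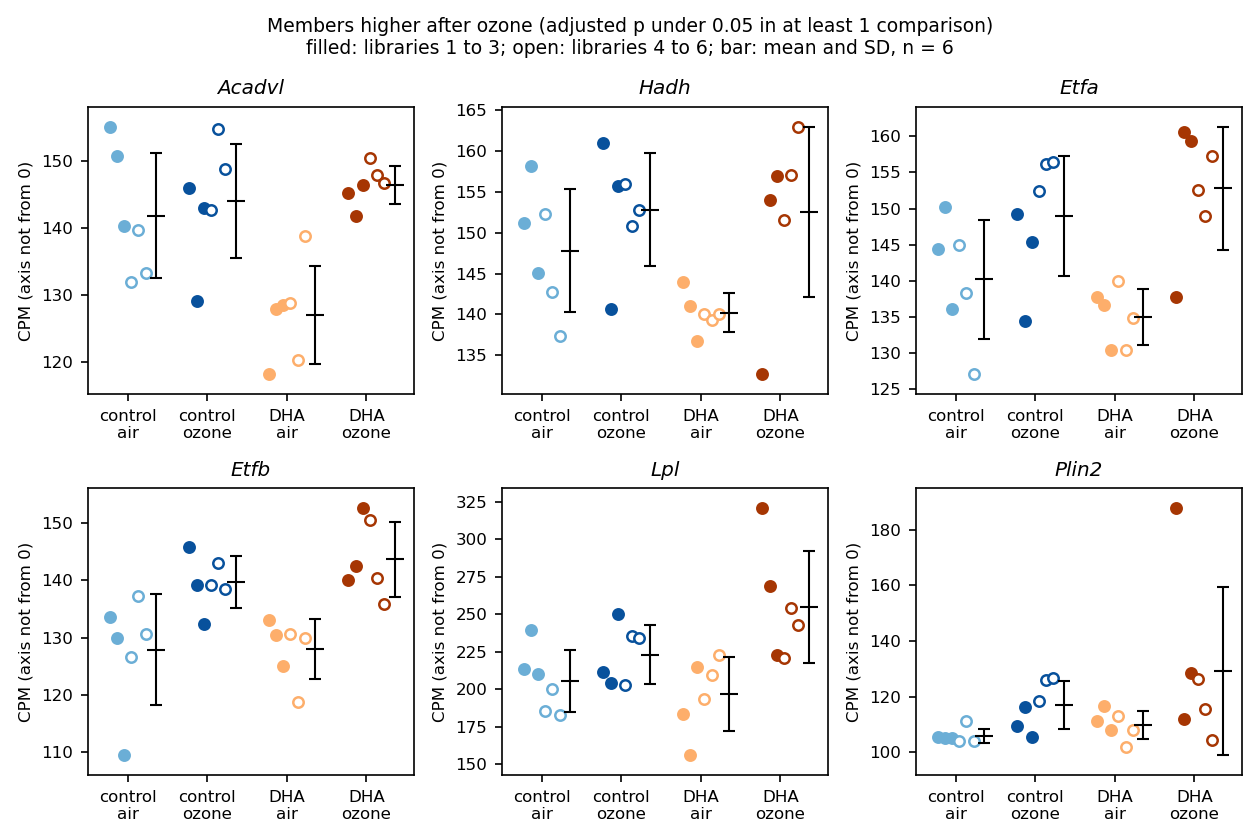
Levels of Acadvl, Hadh, Etfa, Etfb, Lpl and Plin2 in CPM on linear axes that do not start at 0, 1 point per library (filled for libraries 1 to 3, open for 4 to 6) with the mean and SD of 6 beside each group. On the DHA diet Acadvl runs from 118 to 139 CPM in air and from 142 to 150 after ozone; library 1 of DHA-diet ozone is lowest of its group for Hadh and Etfa and highest for Lpl and Plin2.

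The decreases on the control diet were unequal between libraries. With libraries 1 to 3 of each group alone, the changes after ozone were −2.49 for Pdk4, −2.08 for Slc25a34, −1.45 for Ucp3, −1.12 for Acot1 and −0.73 for Fabp3, all called by edgeR, and Cpt1a, Hadha and Ppargc1a were also called lower. With libraries 4 to 6 alone, the calls were Etfa, Lpl and Plin2, all higher, while Pdk4 was at 0.00 (adjusted p = 0.99). Without control-diet air libraries 1 to 3, Fabp3 (−0.36, adjusted p = 0.0357) was still called, and Vnn1 (−0.34, adjusted p = 0.0245) was called in addition. For ozone on the DHA diet, libraries 4 to 6 alone gave −0.83 for Pdk4 (adjusted p = 0.00891) and −1.20 for Angptl4 (adjusted p = 0.000468). The interaction called Pdk4 in libraries 1 to 3 alone (2.33, adjusted p = 0.0301), where Pdk4 was the only gene called of all tested. In libraries 4 to 6 alone the interaction called Angptl4 (−1.20, adjusted p = 0.0285), where 68 of all genes were called higher and 65 lower. These splits by library number were chosen after seeing the values, and the labels do not say what the numbers stand for.

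Within groups, many of the genes rose and fell with Pdk4 from library to library. After group means were removed, the Pearson correlation with Pdk4 over 24 libraries passed an adjusted p of 0.05 over all genes for 12 of the other 36 genes, all positive, against 1.02% of all genes with a positive call and 2.15% with either sign (permutation within groups, 2-sided). The relation was looked for after Pdk4's spread had been seen. Acadl, the long-chain dehydrogenase, had the highest value, r = 0.87 (Spearman rho = 0.849, permutation p = 1e-05, adjusted p = 0.0124), where 1e-05 is the smallest p the permutations can give. The others were Acot1 at 0.804, Hadha at 0.788, Cpt1a at 0.781, Slc25a34 at 0.778, Etfdh at 0.735, Acaa2 at 0.72, Ucp3 at 0.717, Ucp2 at 0.696, Eci2 at 0.647, Angptl4 at 0.623 and Slc25a20 at 0.62, with rho from 0.587 for Etfdh upward and an adjusted permutation p of up to 0.0491, for Ucp3. Without control-diet air libraries 1 and 6, the 2 farthest from the median of Pdk4, r of the 12 lay between 0.595 for Etfdh and 0.816 for Acadl, and without control-diet air libraries 1 to 3 between 0.542 for Acaa2 and 0.819 for Eci2. With Spearman's rho the count was 8 of 36, and the share of all genes called with rho was not worked out. Ppara had r = 0.0645 and Ppargc1a r = 0.55, neither called. Libraries share their scaling and tissue composition across genes, and the part of these in the correlations was not tested.

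**Figure D4:**
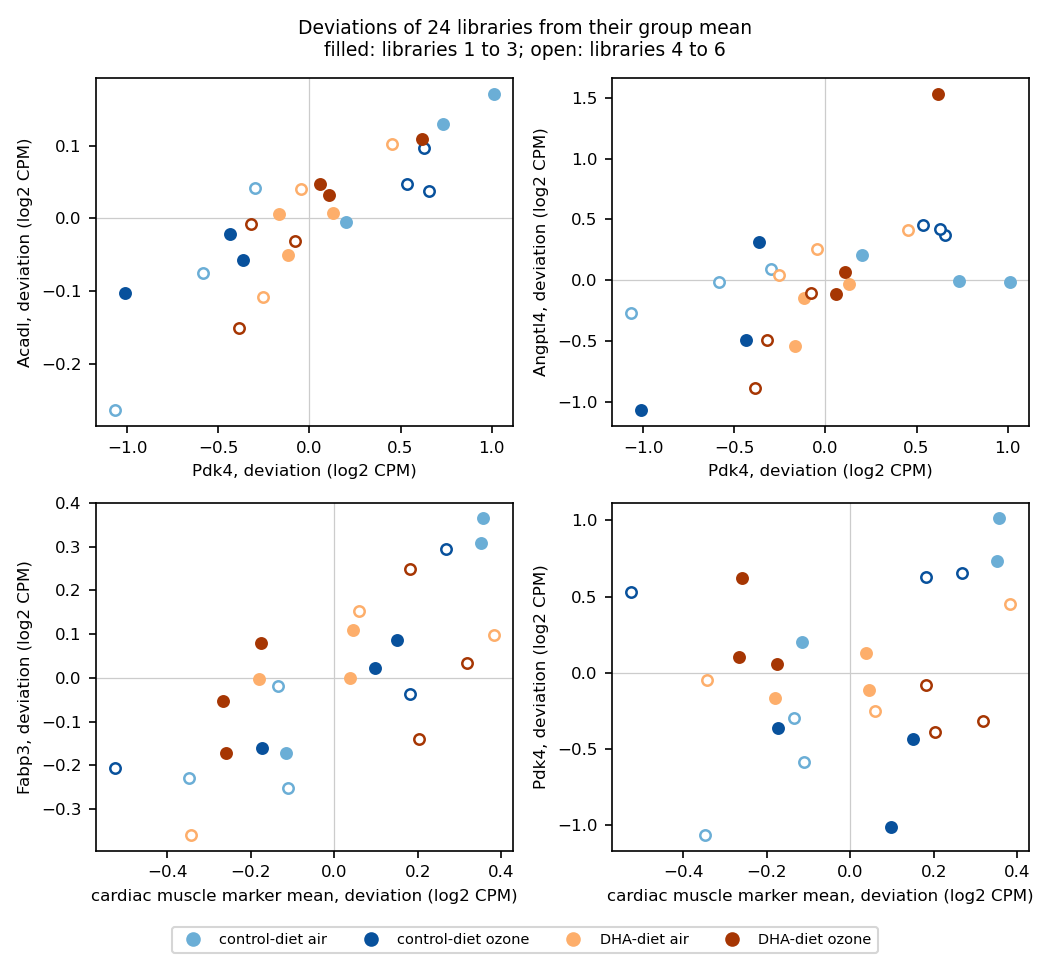
Deviations of the 24 libraries from their group mean in log2 CPM, for Acadl and Angptl4 against Pdk4 (top) and for Fabp3 and Pdk4 against the mean of 12 heart muscle markers (bottom), coloured by group and filled for libraries 1 to 3. Points follow a rising line for Acadl (r = 0.87) and Fabp3 (r = 0.749) and scatter for Pdk4 against the heart markers (r = 0.25).

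Markers of heart muscle moved with some of these genes. After ozone on the control diet all 12 heart markers had values below zero and 4 were called lower (Csrp3, Myh6, Myoz2 and Ryr2), with a median of −0.32. This fit used all libraries. In control-diet air, libraries 1 and 2 had heart marker means of 7.25 and 7.24 log2 CPM, and libraries 3 to 6 had 6.54 to 6.78. On the DHA diet in air all 12 were below zero, with a median of −0.47 and Csrp3 called. The 8 white fat markers had medians of −0.48 and −0.58 in the same comparisons, with Plin4 called in the first. Over the 24 libraries, group means removed, the mean of the 12 heart markers correlated with Fabp3 (r = 0.749, rho = 0.739, permutation p = 0.00016, adjusted p = 0.0237 over all genes) and with Acadm (r = 0.738, rho = 0.718, permutation p = 0.00028, adjusted p = 0.0362). These are 2 of the 37 genes, against 0.774% of all genes with a positive call. Without the 2 libraries farthest from the median the values were 0.713 and 0.665. Pdk4 had r = 0.25 with the heart markers and r = 0.47 with the white fat markers (adjusted p = 0.892), and for white fat 0 of the 37 were called, against 0.0186% of all genes. An unadjusted permutation p under 0.05 was reached there by 9 of the 37 with Pearson's r and 12 with Spearman's rho, which also called 0. The share of all genes at that unadjusted level was not worked out, so no link to fat is read from these counts. The part of heart or fat tissue in the decreases of Fabp3, Acadm and the other genes was not tested.

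Other genes of the same pathways, 90 tested of 97 listed, came to 14 higher and 5 lower after ozone on the control diet, 12 and 3 on the DHA diet and 23 and 11 averaged over diets. Of all genes, 8.93% were called higher and 7.87% lower in the first, 12.7% and 11% in the second and 18.5% and 16.9% in the average. Their median averaged change was 0.025, against −0.01 over all genes. Of 17 further genes listed under mitochondrial beta-oxidation 9 rose in the average and 0 fell (9 at an unadjusted p under 0.05). They were led by Acot7 (0.53 ± 0.05, edgeR adjusted p = 6.19e-08), Hsd17b10 (0.31 ± 0.05) and Pcca (0.27 ± 0.05). Acot7 is a thioesterase and not a step of beta-oxidation itself, and Hsd17b10 and Pcca act on branched and odd chains. Acot7 ran from 88.6 to 128 CPM in control-diet air and from 133 to 164 CPM in control-diet ozone, without overlap. Of 17 peroxisomal genes 3 rose and 2 fell; Scp2 (0.25 ± 0.03), Hsd17b4 (0.26 ± 0.04) and Abcd3 (0.22 ± 0.04), which transport and shorten very long and branched chains, led the rises. Of 15 genes of acyl-CoA synthesis and uptake 4 rose and 2 fell; Acsl5 (0.24 ± 0.03) and Acsl4 (0.36 ± 0.06), which activate long-chain fatty acids, rose, and the transporter Slc27a1 fell by 0.38 ± 0.06. The counts of these single lists are from the averaged comparison, in which 35.4% of all genes were called.

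Among ketone body enzymes, Acat1 (0.17 ± 0.03, edgeR adjusted p = 0.000313) and Bdh1 (0.29 ± 0.08, adjusted p = 0.00583) rose after ozone averaged over diets. Bdh1, which interconverts the ketone bodies, fell on the DHA diet in air by 0.53 ± 0.11 (adjusted p = 0.0202), from 6.30 to 8.61 CPM on the control diet to 3.99 to 5.93 CPM, without overlap. Of 20 further PPAR targets and fat storage genes 3 rose and 5 fell averaged over diets, where 18.5% of all genes were called higher and 16.9% lower, including Pdk3, a kinase related to Pdk4, which rose by 0.33 ± 0.04 (adjusted p = 2.71e-06), and Plin4, a droplet coat protein of fat and muscle, which fell by 0.51 ± 0.12. Pdk3 ran from 19.9 to 22.5 CPM in control-diet air and from 25.7 to 29.4 CPM in control-diet ozone. Of 15 PPAR partners and co-regulators, Pparg, the receptor of fat cells and alveolar macrophages, rose by 0.27 ± 0.09 (adjusted p = 0.022) and Med1, a coactivator subunit, fell by 0.15 ± 0.04 (adjusted p = 0.00257).

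Some of the genes share sequence with copies elsewhere, and reads counted for them are uncertain. With 10% or more of their 31-base words in other genes' transcripts, beside Cpt1b, these are Etfb (68.0%), Hadhb (65.6%), Fabp3 (50.1%), Acaa1a (46.0%), Acot1 (39.2%), Acot2 (37.8%), Acadvl (32.7%), Eci2 (15.2%), Acadm (12.7%) and Etfa (11.4%). For Acaa1a the largest match was its paralogue Acaa1b, at 43.8%, and for Fabp3 the pseudogene Fabp3-ps1, at 35.2%. Pdk4 had 1.9%, Slc25a34 0.4% and Ucp3 0.0%.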

How the data were processed

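RNA was extracted with a Qiagen RNeasy kit and libraries were made by Genewiz, per the labels' protocols. Per the submitters' processing notes the authors used Partek, STAR, HTSeq and mm39; the sources used here do not give versions, annotation or strand setting. The authors deposited raw counts per gene; 1 gene's values are rounded to 3 significant digits. The labels gave the groups. The members and lists were chosen with earlier results of these data known.

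Genes passing filterByExpr (minimum count 10, total 15) entered an edgeR 4.0.16 model (R 4.3.3) after TMM scaling, with 1 mean per group and 20 residual degrees of freedom. Calls are Benjamini-Hochberg adjusted p under 0.05 over all genes; SE is the log2 change over the root of F, and CPM uses TMM-scaled totals. All genes of the set are named; those called in any comparison, with Ppara, Ppard, Ppargc1a and Pdk4, have values by library, and up to 3 called genes per pathway list are named by smallest p. A gene of the pathway lists is not reported here. Correlations used log2 CPM (prior count 2) and 100000 permutations within groups, adjusted over all genes, where the plan was to adjust over the members; those with Pdk4 were added later. Shared sequence used GENCODE M21 transcripts. Scripts were tested on simulated data.

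Other settings were DESeq2 1.42.0, RLE scaling, library totals, a 1 CPM filter in 6 libraries or none, a replicate block, the 2 groups alone and each library left out. Chosen after the data were seen: fits without control-diet air libraries 1 to 3, without DHA-diet ozone libraries 1 and 2, and of libraries 1 to 3 or 4 to 6 only. Figures and correlations used Python 3.11.15 (matplotlib 3.10.9, pandas 2.3.3, scipy 1.17.1, numpy 2.4.6).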

Additional observations from a re-analysis of the deposited data

Results flagged for a closer look

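In 12 of 148 groups of 6 libraries, 1 library lay far from the other 5 by Dixon's ratio (critical value 0.625), where chance gives about 7.4. In DHA-diet ozone, library 1 was high for Angptl4 (54.5 CPM, others 10.1 to 19.6), Plin2 (188, others 104 to 128) and Cd36 (1279, others 879 to 976) and low for Eci1 (48.5, others 54.1 to 56.4). In the same group library 5 was high for Ppara (9.77, others 8.02 to 8.59) and library 6 low for Slc25a20 (40.9, others 49.1 to 52.4). In DHA-diet air, library 4 was low for Fabp3 (16.7, others 21.4 to 23.8) and library 2 low for Plin5 (6.76, others 8.10 to 8.84). In control-diet air, library 2 was high for Ppargc1b (6.49, others 4.62 to 5.28) and library 5 high for Plin2 (111, others 104 to 106). In control-diet ozone, library 1 was high for Plin5 (11.9, others 7.70 to 8.76) and library 2 low for Ehhadh (9.76, others 11.03 to 11.5).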

How the results depend on the processing

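Of the 30 calls of single genes, 0 changed direction under any alternative. The calls as a group did: for ozone on the control diet they went from 0 higher and 5 lower to 3 higher and 0 lower with libraries 4 to 6 alone, with the median over the 37 genes going from −0.07 to 0.06. The median averaged over diets went from −0.01 to 0.04 without control-diet air libraries 1 to 3, and that of the interaction from 0.09 to −0.03 with libraries 4 to 6 alone. Among the 30, RLE scaling, the filter of 1 CPM in 6 libraries and DESeq2 kept 30, library totals lost 4, no filter 3, the replicate block 6, DHA-diet ozone without libraries 1 and 2 lost 2, control-diet air without libraries 1 to 3 lost 13, libraries 1 to 3 alone 11 and libraries 4 to 6 alone 19; leaving out 1 library lost 68 of 720. A fit of the 2 groups alone lost 1 of 12.

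For ozone on the control diet the number of genes called was 2 without control-diet air libraries 1 to 3, 8 with libraries 1 to 3 alone and 3 with libraries 4 to 6 alone, against 5. Of all genes, these fits called 852 higher and 951 lower, 1031 and 556, and 995 and 961, against 1442 and 1271. On the DHA diet the number of the 37 called was 10 with DESeq2 and 2 with libraries 1 to 3 alone, against 6. Of all genes, these fits called 2243 higher and 1918 lower, and 1048 and 615, against 2055 and 1769. Averaged over diets the number of the 37 called was 9 with libraries 1 to 3 alone and 10 with libraries 4 to 6 alone, against 16. Of all genes, these fits called 2203 higher and 1549 lower, and 1615 and 1536, against 2989 and 2737. For the DHA diet in air the number of the 37 called was 2 with library totals, 2 with the 1 CPM filter, 4 with DESeq2, 0 without control-diet air libraries 1 to 3, 4 without DHA-diet ozone libraries 1 and 2, 6 with libraries 1 to 3 alone and 0 with libraries 4 to 6 alone, against 1. Of all genes, the same fits in the same order called 72 higher and 113 lower, 111 and 88, 317 and 272, and 0 and 0. Then came 344 and 403, 191 and 255, and 120 and 47, against 117 and 69. For the diet averaged over exposures, 1 gene of the set was called with no filter and 0 without control-diet air libraries 1 to 3. The number was 1 without DHA-diet ozone libraries 1 and 2 and 0 with libraries 4 to 6 alone, against 2. In the same order, these fits called 404 of all genes higher and 528 lower, 6 and 4, 499 and 680, and 0 and 0. With all libraries and the filter, 1140 of all genes were called in either direction. The interaction gave 1 gene with libraries 1 to 3 alone and 1 with libraries 4 to 6 alone, against 0. Of all genes, it called 1 higher and 0 lower in the first fit and 68 and 65 in the second, against 0 and 0. The cause of these moves was not tested, except that subsets hold fewer libraries.

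Leaving out 1 library gave 5 to 7 genes for ozone on the control diet, 4 to 10 on the DHA diet (10 without control-diet ozone 1 or DHA-diet ozone 1) and 14 to 18 averaged. On the DHA diet, 2241 of all genes were called higher and 1717 lower without control-diet ozone 1. Without DHA-diet ozone 1 they were 1947 and 1822, against 2055 and 1769. It gave 0 to 7 for the diet in air (7 without control-diet air 6, 5 without DHA-diet ozone 1, 3 without DHA-diet air 6, 2 without control-diet air 5, control-diet ozone 1 or DHA-diet ozone 2, and 0 where Fabp3 lost its call), 1 to 4 averaged over exposures (4 without control-diet air 6), 0 to 0 after ozone and 0 to 0 for the interaction. Libraries of the same number did not deviate together (mean correlation −0.0169, range −0.21 to 0.0966, with 0 of 24 libraries nearest to a namesake), and the number was not taken as a pairing; with it as a replicate block the counts were 0 for the diet in air and 1 for the diet averaged. Of all genes, the fit with that block called 64 higher and 21 lower in the first and 336 and 440 in the second. The depth limits Cpt1b, Ucp3 and Slc25a34 most, since they have the fewest counts of the set.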
